A study of Homo sapiens with 6 samples.

Results

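The let-7 family has 2 products per hairpin. The 5p arm is the guide strand, which is loaded into Argonaute and represses growth and stemness genes such as LIN28B, HMGA2 and RAS genes, and the 3p arm is the passenger strand, most of which is discarded when the duplex is opened. Drosha and Dicer cut both arms from the same precursor, so a ratio of 3p to 5p reads within a library sets the passenger against its own guide. The members here are all rows of the deposited miRNA values that start with let-7 and end in -3p, 10 of the 449 mature miRNAs listed. They are hsa-let-7a-3p, hsa-let-7a-2-3p, hsa-let-7b-3p, hsa-let-7c-3p, hsa-let-7d-3p, hsa-let-7e-3p, hsa-let-7f-1-3p, hsa-let-7f-2-3p, hsa-let-7g-3p and hsa-let-7i-3p, written from here on without the species prefix.

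They were measured by small RNA sequencing in breast cancer stem-like cells (BCSCs) grown out of MDA-MB-231, an established line of triple-negative breast carcinoma. The RA group was cultured with 200 μg/mL rosmarinic acid (RA), a plant phenolic acid extracted from S. glabra, for 48 h (3 libraries), and the control group with 0 μg/mL for 48 h (3 libraries), all labelled WT and kept in medium with serum. The paper dissolved RA in DMSO and used DMSO as the control of its viability assay. It also describes enriching BCSCs as spheres in serum-free medium. Both groups came from 1 cell line, the labels name 3 wells per group without saying whether a library is a separate well, and their extraction notes describe brain tissue, so the tests below speak for these 6 libraries and for the variation among them, which may be technical. The deposited values are headed CPM, reads scaled by the authors in a way that is not stated. The miRNA reads recovered from them numbered 176590 to 1158116 in the RA libraries and 2190324 to 4111404 in the control libraries. All RA libraries were shallower than all controls, so depth and treatment cannot be told apart. A single read stood for 5.21 CPM in RA replicate 2 and for 0.233 CPM in control replicate 2. In bulk libraries, fewer cells carrying an RNA and less of it per cell cannot be told apart. Of 5 miRNAs typical of mesenchymal-like breast cancer lines all were measured, at a summed 54009 to 80123 CPM in RA and 65320 to 74759 CPM in control libraries, while the 4 measured of 6 epithelial markers summed to 183 to 218 CPM in RA and 195 to 277 CPM in control libraries.

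RefSeq gave a mature sequence for 9 of the 10 members (GRCh38.p14), shown with the seed, bases 2 to 8 from the 5′ end, in capitals, because the seed sets which messages a strand could pair with.
let-7d-3p: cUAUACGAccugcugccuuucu
let-7a-3p: cUAUACAAucuacugucuuuc
let-7f-1-3p: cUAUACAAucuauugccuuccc
let-7b-3p: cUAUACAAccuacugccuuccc
let-7e-3p: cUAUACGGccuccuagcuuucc
let-7i-3p: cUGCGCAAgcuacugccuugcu
let-7c-3p: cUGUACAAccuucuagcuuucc
let-7a-2-3p: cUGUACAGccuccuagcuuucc
let-7g-3p: cUGUACAGgccacugccuugc
These 9 strands carried 6 different seeds. let-7a-3p, let-7b-3p and let-7f-1-3p shared one, as did let-7a-2-3p and let-7g-3p, and the only other measured miRNA with a seed of this set was miR-98-3p, which has that of let-7a-3p. The guide strands differ in this respect, since all 8 measured let-7 5p arms have the same seed, shown here for the partner of the most abundant member.
let-7d-5p: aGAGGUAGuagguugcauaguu
Of these 8 guides, 7 begin with U and 1, let-7d-5p, with A, the bases that Argonaute favours at the 5′ end of a guide. All 9 passenger strands begin with C. C was the first base of 40.7% of 113 less abundant arms and of 13.2% of 106 more abundant arms from hairpins outside let-7.
The 3′ ends fell into groups as well. let-7a-2-3p, let-7c-3p and let-7e-3p all end in the same 10 bases, CUAGCUUUCC, which no other measured miRNA with a sequence has. let-7a-2-3p differs from let-7c-3p and from let-7e-3p at 2 of 22 positions each, and let-7f-1-3p from let-7b-3p at 2 of 22. Reads with base errors could therefore pass between these members. let-7f-2-3p, the member without a sequence here, was not compared, so whether reads pass between it and other members is not known.

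The hairpins lie on 8 chromosomes. Those of let-7a-1, let-7f-1 and let-7d stand within 2964 bases of each other on chromosome 9 (GRCh38), in an intron of the long non-coding gene AL158152.2 in GENCODE 29, with let-7d at chr9:94178834-94178920, where LINC02603 runs over it on the opposite strand. let-7a-3 and let-7b lie in an exon of MIRLET7BHG on chromosome 22. let-7a-3p is identical in let-7a-1 and let-7a-3, so its reads sum both places. The others lie in introns: let-7a-2 of MIR100HG on chromosome 11, let-7c of MIR99AHG on chromosome 21, let-7e of SPACA6 on chromosome 19, let-7g of WDR82 (chr3:52268278-52268361), let-7i of AC048341.1 on chromosome 12 and let-7f-2 of HUWE1, a ubiquitin ligase gene (chrX:53557192-53557274). These positions are RefSeq's, as the deposited values carry none.

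The passenger strands spanned a 397-fold range of mean level over all 6 libraries. let-7d-3p and let-7a-3p made up 75.6 to 84.9% of the summed 3p level in RA and 75.8 to 78.5% in control libraries. let-7f-1-3p, let-7b-3p, let-7e-3p, let-7f-2-3p, let-7i-3p and let-7c-3p followed at means between 86.3 and 17.9 CPM. let-7a-2-3p and let-7g-3p were close to the level of single reads. Neighbours in this order overlapped between libraries, apart from the steps from let-7a-3p down to let-7f-1-3p and from let-7c-3p down to let-7a-2-3p, where the lowest library of the upper member lay above the highest of the lower one. Added together the 10 members reached 1828, 854 and 1288 CPM in RA replicates 1, 2 and 3, against 965, 1030 and 1131 CPM in control replicates 1, 2 and 3. The RA libraries lay on both sides of the controls. Their mean was 1323 ± 488 CPM, against 1042 ± 83.7 CPM in the controls (SD, n = 3 each), a log2 ratio of 0.34 that fell to 0.04 without RA replicate 1. All 8 let-7 guides together were at 270000.4, 169861 and 169952 CPM in RA libraries and 167372, 128361 and 161748 CPM in control libraries, so that the passengers stood at 0.677, 0.503 and 0.758% of the guides in RA and at 0.577, 0.803 and 0.699% in control libraries.

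**Figure D1:**
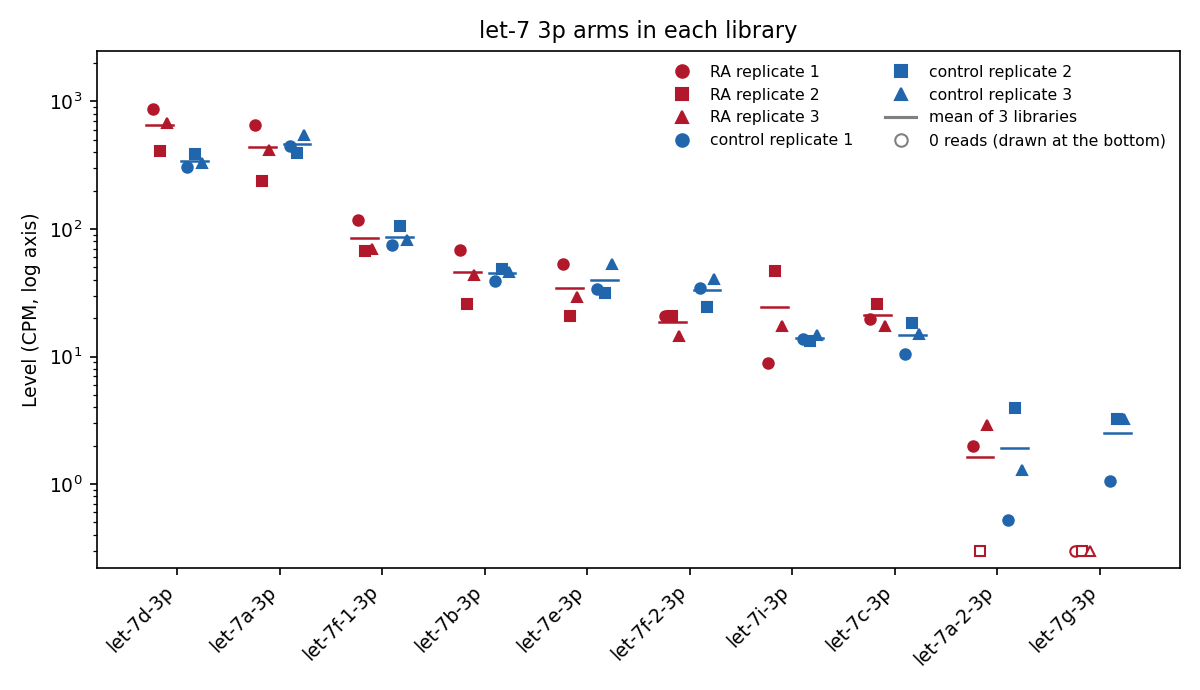
Level of each let-7 3p arm in CPM (log axis) in the 3 RA libraries (red) and the 3 control libraries (blue); marker shapes are replicate numbers, lines are group means and open markers are libraries without a read. RA libraries of let-7d-3p, at 406 to 879 CPM, all lie above its control libraries, at 309 to 389 CPM, and those of let-7f-2-3p, at 14.5 to 20.8 CPM, all lie below its controls, at 24.4 to 40.5 CPM.

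let-7d-3p was the member with the clearest higher level after RA. It was at 879, 406 and 678 CPM in RA replicates 1, 2 and 3 (890, 78 and 233 reads), against 309, 389 and 328 CPM in control replicates 1, 2 and 3 (587, 1669 and 1022 reads). Every RA library lay above every control, with RA replicate 2 only just so. The mean was 654 ± 237 CPM in RA and 342 ± 41.6 CPM in control libraries (SD, n = 3 each), 1.91-fold. On log2(CPM + 1) the change was 0.87 (standard error 0.27, adjusted p = 0.075 from limma over all 449 miRNAs), which missed the threshold of 0.05. edgeR's quasi-likelihood test, which gives weight to depth, put it at 0.95 and below the threshold (adjusted p = 0.033). That call ended without RA replicate 3 or any 1 of the control replicates (adjusted p of 0.057 to 0.12 from edgeR), and in limma it appeared without RA replicate 2 (adjusted p = 0.042). Its guide let-7d-5p stood at 9974, 4417 and 6601 CPM in RA and 3563, 3522 and 4103 CPM in control libraries, a log2 fold change of 0.83 (adjusted p = 0.075 from limma and 0.024 from edgeR).

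No other member passed in limma or edgeR. let-7a-3p, from the same transcript as let-7d and from chromosome 22, was at 658, 240 and 416 CPM in RA against 449, 392 and 547 CPM in control libraries. The RA libraries surrounded the controls, and the log2 fold change was -0.18 (95% interval -0.89 to 0.52). let-7f-1-3p, the third product of the chromosome 9 cluster, had 118, 67.7 and 69.8 CPM in RA libraries and 74.7, 105 and 81.9 CPM in control libraries, likewise overlapping. let-7b-3p had 68.1, 26.0 and 43.6 CPM in RA and 39.5, 48.9 and 46.2 CPM in control libraries, and let-7e-3p 53.3, 20.8 and 29.1 CPM in RA and 33.7, 31.4 and 53.6 CPM in control libraries. In all of these, RA replicate 1 was the highest RA library, and the 5 reads of let-7b-3p and 4 of let-7e-3p in RA replicate 2 were the lowest level. Their log2 fold changes lay between -0.26 and -0.06, with those of let-7b-3p and let-7f-1-3p above 0 under library-total and upper-quartile scaling.

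let-7f-2-3p, cut from the X-linked hairpin, moved the other way from let-7d-3p. It was at 20.7, 20.8 and 14.5 CPM in RA replicates 1, 2 and 3 (21, 4 and 5 reads), against 34.2, 24.4 and 40.5 CPM in control replicates 1, 2 and 3 (65, 105 and 126 reads). All RA libraries lay below all controls. The log2 fold change was -0.78 (standard error 0.42, adjusted p = 0.32 from limma and 0.22 from edgeR) and did not pass. let-7i-3p and let-7c-3p, the next in level, had wide intervals: the log2 fold change of let-7i-3p was 0.47 (95% interval -0.82 to 1.76) and that of let-7c-3p 0.51 (-0.51 to 1.52). let-7i-3p was at 46.9 CPM in RA replicate 2, from 9 reads, and at 8.89 and 17.4 CPM in RA replicates 1 and 3, against 13.3 to 14.8 CPM in control libraries, and without RA replicate 2 its change was -0.14.

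The pair at the bottom had few reads, and depth and treatment cannot be told apart for it. let-7g-3p had no read in any RA library and 2, 14 and 10 reads in control replicates 1, 2 and 3. At the pooled control level of 2.79 CPM, the 3 RA libraries together would have held 4.32 reads of it. Against a floor of 3 reads over the RA group, 1.94 CPM, it was at least 1.44-fold lower in RA, while control replicate 1, at 1.05 CPM, lay under that floor. The exact counting interval of the ratio of RA to control, which also carries the counting error of the controls, reached up to 0.916, and the test did not pass (adjusted p = 0.178 from limma and 0.185 from edgeR). let-7a-2-3p had 2, 0 and 1 reads in RA and 1, 17 and 4 reads in control libraries, a ratio of RA to control of 0.82 with an exact counting interval of 0.16 to 2.73. Such intervals and floors cover counting error only.

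At an adjusted p under 0.05 from limma, 0 of the 10 members were higher and 0 lower, against 2.9% of all 449 miRNAs higher and 4.68% lower (7.57% in either direction). At an unadjusted p under 0.05 there were 2 members, let-7d-3p and let-7g-3p, against 21.8% of all miRNAs. edgeR called 1 member higher and 0 lower, against 8.46% and 6.24% of all miRNAs. By position alone, 1 member had all RA libraries above the controls and 2 had all below, against 8.69% and 17.1% of all miRNAs. let-7g-3p, 1 of these 2, had no read in RA, and its control replicate 1 lay under the floor of the RA group. The counts of members were therefore near the background. Their median log2 fold change was -0.13, with 3 above 0 and 7 below (5 and 5 after library-total scaling), against a median of 0.00 over all miRNAs and -0.19 over 124 less abundant arms outside let-7, of which 0 were higher and 2 lower in limma. Among the 8 members of at least 10 CPM, 6 varied more over the RA than over the control libraries. The coefficient of variation was 19.3 to 81.7% in RA and 5.59 to 30.9% in control libraries. let-7f-2-3p (19.3% in RA, 24.4% in control) and let-7c-3p (21.1% and 26.9%) varied less in RA.

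The arm ratio removes what both arms of a hairpin share. The sequences of let-7a-5p, let-7c-5p, let-7e-5p and let-7f-5p are nearly identical. Reads with base errors could therefore pass between these guides, so shares taken against them may not belong to the named hairpin alone. The share of 3p among 3p and 5p reads was largest for let-7d, at 8.10, 8.42 and 9.31% in RA replicates 1, 2 and 3 and 7.98, 9.93 and 7.41% in control replicates 1, 2 and 3. The groups overlapped, and the log2 ratio changed by 0.04 (standard error 0.31), since let-7d-3p and let-7d-5p were higher by about the same amount. let-7a followed, with 2.48, 1.79 and 2.49% in RA and 3.54, 3.82 and 4.02% in control libraries, where let-7a-5p also collects the product of let-7a-2. All RA shares lay below all control shares, and the Wilson 95% intervals, up to 2.93% in RA and from 3.32% in control libraries, did not meet. The log2 ratio changed by -0.79 (standard error 0.31), which did not pass (adjusted p = 0.38 from limma over all 134 arm pairs and 0.11 from edgeR).

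**Figure D2:**
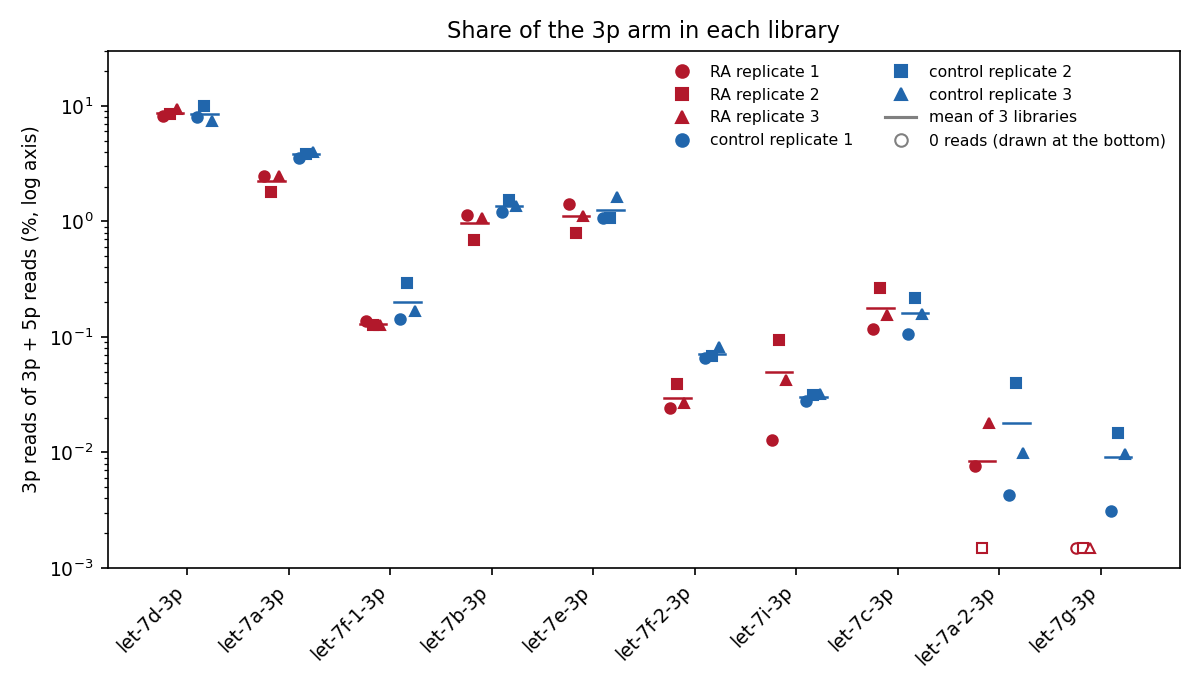
Reads of each 3p arm as a percentage of the 3p and 5p reads of that hairpin name (log axis) in the 3 RA libraries (red) and the 3 control libraries (blue); marker shapes are replicate numbers, lines are group means and open markers are libraries without a 3p read. RA shares of let-7a-3p, at 1.79 to 2.49%, lie below its control shares, at 3.54 to 4.02%, and those of let-7f-2-3p, at 0.024 to 0.039%, below its control shares, at 0.065 to 0.082%, while the shares of let-7d-3p overlap.

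let-7f-2-3p had the lowest RA shares relative to controls among the members of at least 10 CPM. Its reads were 0.024, 0.039 and 0.027% of the reads of let-7f-2-3p and let-7f-5p in RA replicates 1, 2 and 3, and 0.065, 0.068 and 0.082% in control replicates 1, 2 and 3. The groups did not overlap. The change of the log2 ratio was -1.26 (standard error 0.34, adjusted p = 0.13 from limma), and edgeR fitted to the reads of both arms called it lower at -1.41 (adjusted p = 0.012). Without 1 library at a time the edgeR call held without RA replicate 2 and without control replicate 1, and ended without any of the other 4 (adjusted p of 0.054 to 0.35 from edgeR). let-7f-5p sums 2 hairpins, and the other passenger measured against it, let-7f-1-3p, had shares of 0.137, 0.126 and 0.127% in RA and 0.142, 0.292 and 0.166% in control libraries, again without overlap but with RA replicate 1 close to control replicate 1.

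let-7g-3p was lower against its guide in the same edgeR fit (adjusted p = 0.013), with 0 of 70184 let-7g reads in the RA libraries together, which allows a share of up to 0.0043%, against 0.0031, 0.015 and 0.0097% in control replicates 1, 2 and 3. At the pooled control share 6.94 reads would have been counted. limma gave an adjusted p of 0.095. With no RA read the size of the change rests on the pseudocount and is no estimate: it was -2.13 on CPM + 1, -2.88 on CPM + 0.5 and -0.97 on CPM + 5, and -1.40 on reads + 0.5. The edgeR call ended without RA replicate 1, RA replicate 3 or control replicate 2 (adjusted p of 0.13 to 0.50 from edgeR). let-7b-3p had shares of 1.14, 0.684 and 1.07% in RA and 1.21, 1.52 and 1.35% in control libraries, without overlap and without a call. For let-7e-3p, at 1.42, 0.798 and 1.11% in RA and 1.08, 1.06 and 1.63% in control libraries, the groups overlapped. They overlapped as well for let-7c-3p, let-7i-3p and let-7a-2-3p.

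Over the 10 let-7 pairs, 0 ratios were called in limma, where 0 of 134 pairs were (0% in either direction), and 3 had an unadjusted p under 0.05, against 12.7% of all pairs. edgeR called 2 lower and 0 higher, against 2.24% and 8.21% of all pairs. All RA libraries lay below all controls in 5 of the 10 (let-7a, let-7b, let-7f-1, let-7f-2 and let-7g) and above them in 0, against 10.4% and 14.2% of all pairs, and in 9 of the 124 pairs outside let-7. For let-7g this rests on 0 RA reads. There 3 reads would be 0.0057, 0.047 and 0.026% in RA replicates 1, 2 and 3, against control shares of 0.0031 to 0.015%. Its place below the controls is therefore not resolved. Among the 8 let-7 pairs of at least 10 CPM, 4 lay below and 0 above. The ratios of let-7f-1 and let-7f-2 use the same guide value and are not independent, and the same holds for let-7a and let-7a-2. The median change was -0.54 over the let-7 pairs, -0.36 over the 8 let-7 pairs of at least 10 CPM and 0.03 over all pairs. Of the 8 guides 7 had a log2 fold change above 0, with let-7a-5p at 0.60 and let-7f-5p at 0.48. limma called 0 of them (3 had an unadjusted p under 0.05, and edgeR called 1, let-7d-5p, higher). Over all miRNAs 21.8% had an unadjusted p under 0.05 in limma, and edgeR called 8.46% higher. By position, 4 guides had all RA libraries above all controls and 0 had all below, against 8.69% and 17.1% of all miRNAs. The passengers let-7a-3p, let-7b-3p and let-7f-1-3p themselves changed by -0.18, -0.06 and -0.07, and let-7f-2-3p by -0.78, while let-7g-3p had no RA read.

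**Figure D3:**
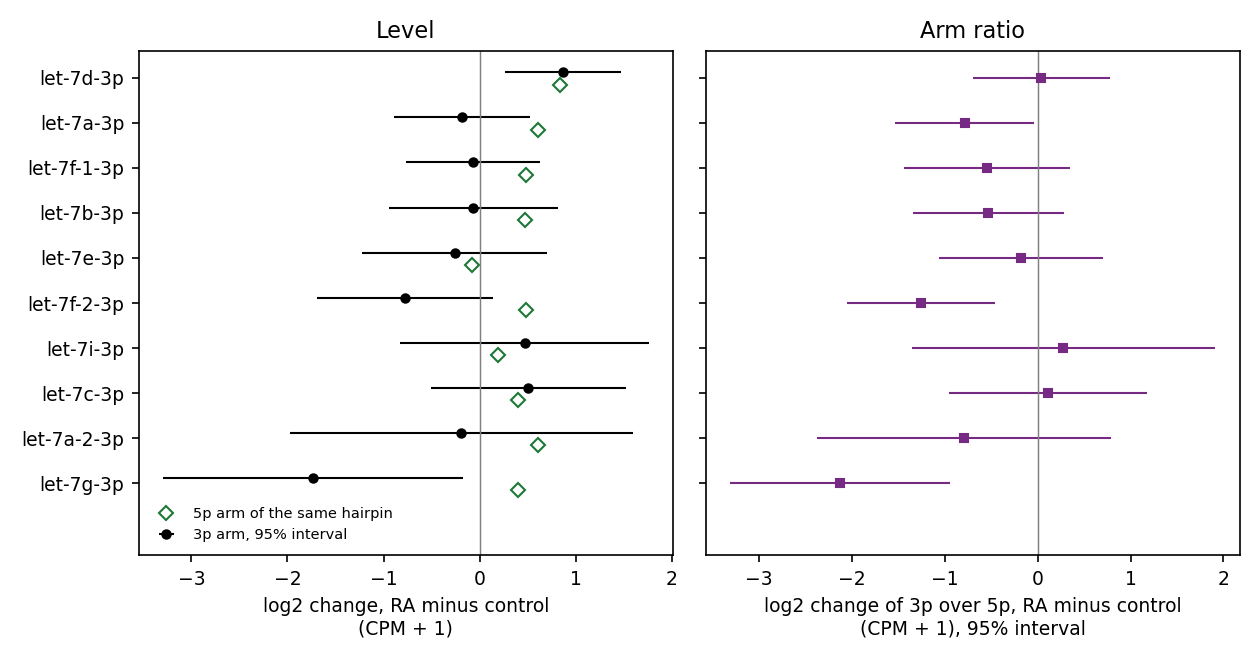
Left, log2 change of each 3p arm (black points, with limma's unadjusted 95% interval) and of the 5p arm of the same hairpin name (green diamonds); right, log2 change of the 3p to 5p ratio with the same kind of interval, all as RA minus control on CPM + 1. The ratio lies at -1.26 for let-7f-2-3p and near 0 for let-7d-3p, at 0.04, and the point of let-7g-3p, which had no read in RA, is set by the pseudocount.

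Several let-7 hairpins have other miRNA hairpins beside them, of miR-99, miR-100, miR-125, miR-98 and miR-4763, and 13 of the 15 listed arms of these neighbours were measured. In limma 0 of the 13 were called (1 at an unadjusted p under 0.05), against 2.9% of all miRNAs higher and 4.68% lower (21.8% unadjusted). edgeR called 1 higher and 0 lower, against 8.46% and 6.24% of all miRNAs. It was miR-125a-5p of the let-7e transcript, at 3010, 1469 and 3184 CPM in RA and 1099, 1590 and 1005 CPM in control libraries. These counts were near the background. Of the 7 passenger strands among them 0 passed in limma or edgeR. miR-125b-1-3p, beside let-7a-2, had a log2 fold change of -0.18, miR-99b-3p, beside let-7e, 0.08, and miR-125b-2-3p, beside let-7c, -0.11. miR-98-3p, beside let-7f-2 and with the seed of let-7a-3p, had 9, 1 and 3 reads in RA, all above the controls at 8.89, 5.21 and 8.72 CPM against 1.05, 3.03 and 2.89 CPM, without passing either test (adjusted p of 0.24 from limma and 0.175 from edgeR). By position, 1 of the 13 neighbours had all RA libraries above the controls and 0 had all below, against 8.69% and 17.1% of all miRNAs.

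Markers of other cell types were measured in the same libraries. All 9 listed for blood cells had reads, with a sum of 2693, 1683 and 2358 CPM in RA replicates 1, 2 and 3 and 1942 to 2109 CPM in control libraries. Their log2 fold changes were above 0 for 5 and below 0 for 4, and limma called 1 of 9 higher and edgeR 3, against 2.9% and 8.46% of all miRNAs. miR-451a of red blood cells, the 1 that limma called, was at 824, 26.0 and 355 CPM in RA and 5.26 to 33.8 CPM in control libraries. miR-486-5p, another red cell miRNA, was at 397, 240 and 346 CPM in RA and 363 to 398 CPM in control libraries, and miR-142-5p of white blood cells at 1140, 823 and 826 CPM in RA and 829 to 1138 CPM in control libraries. The liver miRNA miR-122-5p was at 9493, 5.21 and 0 CPM in RA and 1.61 to 32.1 CPM in control libraries. The 2 endothelial markers summed to 412, 0 and 233 CPM in RA and 3.16 to 8.99 CPM in control libraries. In limma 0 of the 2 liver and 0 of the 2 endothelial markers were called. edgeR called 1 liver and 2 endothelial markers higher and 0 lower, and 0 of the epithelial and mesenchymal markers, against 8.46% of all miRNAs higher. The order of the RA libraries in the blood sum, with replicate 1 highest and replicate 2 lowest, was that of let-7d-3p, and also that of let-7a-3p, of the summed members and of the mesenchymal markers (80123, 54009 and 60842 CPM in RA replicates 1, 2 and 3). The part of these markers in the level of let-7d-3p was not tested.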

How the data were processed

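The authors sequenced small RNA libraries and deposited 1 normalized signal per mature miRNA and library, headed CPM, and a log2 value per group (the authors' own, not used here). hg19 is the build in the submitters' notes. Which aligner and counter were used is not given in the sources used here. The methods name a HiSeq 2000 and the labels a NextSeq 500. The values of a library summed to between 867794 (RA replicate 3) and 1152344 (control replicate 1), so the libraries do not share 1 total. All 100% of 2694 deposited values were whole multiples of the value of 1 read (tolerance 0.01 reads), so reads were recovered.

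Members were the rows named let-7 and ending in -3p. Outside let-7 refers to rows without let-7 in their name, which include those of miR-98. An initial list held 8 of these 10, and the row names added let-7g-3p and let-7i-3p. Members, lists and tests were chosen with earlier results of these data known. limma 3.58.1 (trend) was run on log2(CPM + 1) over 449 miRNAs, and limma without trend on log2 3p minus 5p over 134 pairs of arms, with Benjamini-Hochberg adjustment, in R 4.3.3. A 3p entry with a copy number took the 5p entry without it. edgeR 4.0.16 and DESeq2 1.42.0 on recovered reads, other pseudocounts, filters and scalings, a replicate block and fits without 1 library were alternatives. The edgeR fit to both arms and edgeR without each library were added after the data were examined. Named beside the members were their guides, neighbours that passed or were most abundant among 3p arms, markers, and miRNAs of most similar profile. Sequences are RefSeq's, and positions those of RefSeq and GENCODE 29.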

Additional observations from a re-analysis of the deposited data

How the results depend on the processing

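In RA replicate 2, 3 reads correspond to 15.6 CPM, which limits the low members. With limma as reported 0 members were called higher. There was 1 (let-7d-3p) with edgeR, DESeq2, limma-voom, upper-quartile scaling and the replicate block, and 0 to 1 without 1 library at a time. Members called lower numbered 0 in every alternative run. Arm ratios called lower numbered 0 in limma, 2 with edgeR on both arms, 1 (let-7f-2-3p) with the filter of 10 CPM in each arm, and 0 to 2 without 1 library. The log2 ratio of the summed members was 0.34, 0.45 with library-total scaling and 0.04 to 0.58 without 1 library. Over all miRNAs the median change was 0.13 after library-total scaling, and edgeR called 66 miRNAs against 34 by limma.

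The log2 fold change of let-7d-3p, let-7f-2-3p, let-7c-3p and let-7g-3p kept its sign in every alternative, while the 6 other members turned in some. With DESeq2 the change was 0.13 for let-7a-2-3p, 0.11 for let-7a-3p, 0.29 for let-7b-3p, 0.058 for let-7e-3p and 0.19 for let-7f-1-3p. With limma-voom it was 0.66 for let-7a-2-3p, 0.18 for let-7b-3p, 0.018 for let-7e-3p and 0.068 for let-7f-1-3p. let-7b-3p and let-7f-1-3p were at 0.13 and 0.019 with edgeR, 0.068 and 0.067 with library-total scaling and 0.062 and 0.062 with upper-quartile scaling. Without 1 library the range was -0.58 to 0.40 for let-7a-2-3p, -0.54 to 0.19 for let-7a-3p, -0.40 to 0.28 for let-7b-3p, -0.62 to 0.035 for let-7e-3p, -0.33 to 0.075 for let-7f-1-3p and -0.14 to 1.00 for let-7i-3p. The arm ratio change was 0.26 for let-7a-2-3p on recovered reads and -0.097 for let-7c-3p with edgeR, and without 1 library -0.21 to 0.38 for let-7c-3p, -0.058 to 0.17 for let-7d-3p, -0.37 to 0.029 for let-7e-3p and -0.37 to 1.01 for let-7i-3p. The cause of these turns was not tested.

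Deviations of same-numbered RA and control libraries from their group means correlated at 0.12, -0.19 and 0.13 over miRNAs of at least 10 CPM. Those of differently numbered libraries correlated at -0.25 to 0.14. With 3 libraries per group these values cannot decide whether the replicate numbers pair the libraries. With the replicate block let-7d-3p kept its log2 fold change of 0.87 (adjusted p = 0.0064 from limma), 55 miRNAs were called in all, and 0 arm ratios.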

Other observations

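Within a library, the ratio of let-7d-3p to let-7a-3p reads depends on no scaling. It was 1.34, 1.70 and 1.63 in RA replicates 1, 2 and 3 and 0.688, 0.99 and 0.60 in control replicates 1, 2 and 3, so that let-7d-3p outnumbered let-7a-3p in every RA library and in 0 of the 3 controls. Against let-7f-1-3p, also of the chromosome 9 cluster, let-7d-3p stood at 7.42, 6.0 and 9.71 reads per read in RA and 4.13, 3.68 and 4.01 in control libraries. For the guides, let-7d-5p over let-7a-5p was 0.385, 0.335 and 0.406 in RA and 0.292, 0.356 and 0.315 in control libraries, and the groups overlapped. The groups also overlapped for let-7f-2-3p over let-7f-1-3p, at 0.175, 0.308 and 0.208 in RA and 0.458, 0.232 and 0.494 in control libraries. These pairs were chosen after their values were seen, so no test is given.

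The log2 level over the 6 libraries was compared with that of the summed passengers for 244 miRNAs not named let-7, with a mean of at least 10 CPM. Most alike was miR-98-5p, with a root-mean-square difference of 0.086 in log2. It is not unrelated to let-7: its hairpin lies beside let-7f-2, and its 3p arm has the seed of let-7a-3p. miR-92a-3p (0.14), miR-26b-5p (0.15), miR-26a-5p (0.16) and miR-423-3p (0.17) followed. The median over all 244 was 0.56, and the libraries share depth and scaling.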
